A study of Mus musculus with 12 samples.

Results

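p53, the genes it switches on and the inhibitors that stop the cell cycle were followed in mouse liver RNA as a set of 10 genes: Trp53, Mdm2, Cdkn1a, Ccng1, Phlda3, Bbc3, Cdkn1b, Cdkn2a, Cdkn2b and Cdkn2c. The genes were chosen by name, with earlier results of these data known. They are the rows of the count table that carry these symbols, so 10 of the 55357 genes in the table were members. All 10 passed the filter on low counts. Liver poly-A RNA came from male C57BL/6J mice that were 7 weeks old when they started on chow or on CDAHFD, a choline-deficient, high-fat diet with defined amino acids that brings on steatohepatitis, and that were killed 6 weeks later, at 13 weeks. WT chow (4 libraries) and WT CDAHFD (3 libraries) were PPARa fl/fl mice with AlbuminCre +/+, that is, with both alleles floxed and no Cre. KO chow (2 libraries) and KO CDAHFD (3 libraries) were PPARa fl/fl mice with AlbuminCre Tg/+, in which the albumin promoter drives Cre and so deletes PPARα in hepatocytes, while the other cells of the liver keep it. The floxed allele was thus shared by all 4 groups, and no group carried Cre without it. Each library was taken as 1 mouse, which the labels do not state, so the spread between libraries may in part be technical.

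Total counts ran from 29906785 to 43551003 per library, and the tests below covered the 17358 genes left by the filter on low counts. Levels are given as CPM (counts of a gene divided by those of its library and multiplied to a common total) over library sizes scaled by TMM, a method that lines up the bulk of the genes between libraries. Ppara itself ran from 96.2 to 238 CPM in WT chow, from 59.5 to 75.5 CPM in WT CDAHFD, at 14.4 and 38.7 CPM in KO chow and from 20.7 to 51.9 CPM in KO CDAHFD, so every KO library lay below every WT library. Dbp, an output gene of the circadian clock, stood at 130 and 85.9 CPM in WT chow replicates 3 and 4, at 44.8 CPM in KO chow replicate 2 and at 117 CPM in KO CDAHFD replicate 3, against at most 3.749 CPM in the other 8 libraries. These 4 libraries are called high-Dbp below. No WT CDAHFD library was among them, the labels give no time of sampling, and results of members that rest on them are given with and without them. Leaving them out left KO chow replicate 1 as the only library of its group.

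p53, encoded by Trp53, is a transcription factor that is held low by MDM2, a ubiquitin ligase whose own gene is a p53 target, so the pair forms a feedback loop. When DNA damage, oncogene activity or metabolic stress stabilises p53, it switches on Cdkn1a, whose product p21 blocks cyclin-dependent kinases, along with genes that slow growth signalling or start apoptosis. The remaining inhibitors fall into the CIP/KIP family, with Cdkn1a and Cdkn1b (p27), and the INK4 family, with Cdkn2a, Cdkn2b and Cdkn2c, which block the kinases that partner cyclin D. Adult hepatocytes rarely divide, and both families are known for their part in keeping them in that state and in the senescence of damaged liver.

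The promoters of 6 transcription starts are shown first, for the 4 p53 targets that rose in each comparison with WT chow below (Cdkn1a, Mdm2, Ccng1 and Phlda3) and for Bbc3, the target that did not pass the test with TMM scaling. RefSeq sequence for GRCm38.p6 was matched by symbol and gave 15 starts over the 10 members. Each line holds the 250 bases before a start, 5′ to 3′ on the strand of the gene. Capitals mark the p53 half-site, the 10-base consensus that p53 binds in pairs, or the E-box CACGTG, the letters that the clock proteins and MYC bind. Both strands were searched, and each of these patterns reads the same on either strand.
Cdkn1a, upstream start, chr17:29090729-29090978, + strand: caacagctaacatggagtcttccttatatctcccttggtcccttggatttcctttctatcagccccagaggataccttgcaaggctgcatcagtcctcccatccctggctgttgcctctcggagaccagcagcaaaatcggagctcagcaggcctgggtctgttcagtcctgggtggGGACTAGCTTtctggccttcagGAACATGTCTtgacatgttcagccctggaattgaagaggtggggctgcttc
Cdkn1a, downstream start, chr17:29093519-29093768, + strand: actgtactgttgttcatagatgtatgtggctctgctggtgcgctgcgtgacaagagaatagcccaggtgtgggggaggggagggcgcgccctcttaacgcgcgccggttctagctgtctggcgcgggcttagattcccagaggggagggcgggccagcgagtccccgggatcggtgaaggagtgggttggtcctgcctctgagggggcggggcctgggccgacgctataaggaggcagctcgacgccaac
Mdm2, chr10:117710759-117711008, - strand: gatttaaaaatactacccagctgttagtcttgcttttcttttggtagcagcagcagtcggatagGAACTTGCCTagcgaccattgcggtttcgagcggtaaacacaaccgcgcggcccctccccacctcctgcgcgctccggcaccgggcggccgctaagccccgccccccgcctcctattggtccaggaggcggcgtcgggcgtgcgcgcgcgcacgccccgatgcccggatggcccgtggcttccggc
Ccng1, chr11:40755287-40755536, - strand: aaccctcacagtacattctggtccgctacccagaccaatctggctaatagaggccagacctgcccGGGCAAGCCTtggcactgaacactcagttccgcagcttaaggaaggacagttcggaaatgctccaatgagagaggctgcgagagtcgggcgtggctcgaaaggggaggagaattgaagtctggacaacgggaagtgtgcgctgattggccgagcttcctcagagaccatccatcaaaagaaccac
Phlda3, chr1:135765835-135766084, + strand: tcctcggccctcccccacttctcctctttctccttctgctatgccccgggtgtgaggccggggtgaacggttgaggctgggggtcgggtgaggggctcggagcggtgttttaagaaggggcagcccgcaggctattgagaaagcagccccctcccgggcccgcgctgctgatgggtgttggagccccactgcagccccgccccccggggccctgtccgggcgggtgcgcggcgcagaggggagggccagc
Bbc3, most downstream start, chr7:16310181-16310430, + strand: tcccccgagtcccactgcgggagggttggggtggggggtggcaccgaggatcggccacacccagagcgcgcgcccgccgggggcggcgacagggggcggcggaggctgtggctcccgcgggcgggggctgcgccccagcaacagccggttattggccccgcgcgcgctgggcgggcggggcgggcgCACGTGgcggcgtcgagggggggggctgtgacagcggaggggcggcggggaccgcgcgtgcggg

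The upstream Cdkn1a window was the only 1 of the 15 member windows with a pair of half-sites at most 13 bases apart. Its half-sites ran from -73 to -64 and from -51 to -42 relative to the start. Such a pair was found in 21 of 32851 RefSeq promoter windows of this length, or 0.0639%. A lone half-site stood at -186 to -177 in Mdm2, at -185 to -176 in Ccng1 and at -75 to -66 in Trp53. A half-site of any kind was in 7.13% of all windows and in 4 of the 15 member windows. The windows of Phlda3 and of the downstream Cdkn1a start held no match to these letters, which says nothing of sites elsewhere. The E-box, found in 6.02% of all windows, was in 1 of the 15 member windows, that of the Bbc3 start shown, at -64 to -59. The other Bbc3 starts, not shown, held no match. A match of letters is a description of sequence and not a measured binding site.

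Relative to WT chow, members were higher and never lower at an adjusted p under 0.05, by the quasi-likelihood test of edgeR, adjusted by Benjamini-Hochberg over all genes tested. In KO chow 7 of 10 members rose, where 22.0% of all genes tested rose and 17.0% fell. In WT CDAHFD 7 members rose, against 26.1% of all genes (25.0% fell). In KO CDAHFD 9 members rose, against 26.9% of all genes (25.4% fell). Cdkn1a, Cdkn2b, Cdkn2c, Mdm2, Ccng1, Phlda3 and Trp53 were called in each of these comparisons, which share the WT chow libraries. The median log2 fold change over the members was 1.30 for KO chow and 0.72 for WT CDAHFD. It was 1.33 for KO CDAHFD, beside medians of 0.0022, -0.05 and -0.04 over all genes. Libraries did not overlap for 9 members in KO chow, for 6 in WT CDAHFD and for 7 in the KO CDAHFD mice, beside 27.2%, 28.0% and 26.7% of all genes. These counts are relative to the TMM scaling. By library size alone the median of all genes moved to 0.40, 0.51 and 0.57 in log2, and 7037 of 8186, 9092 of 10262 and 9775 of 10870 calls were higher, against 3814 of 6763, 4522 of 8863 and 4674 of 9091 with TMM. In bulk tissue, fewer cells of a type and less RNA per cell cannot be told apart.

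**Figure D1:**
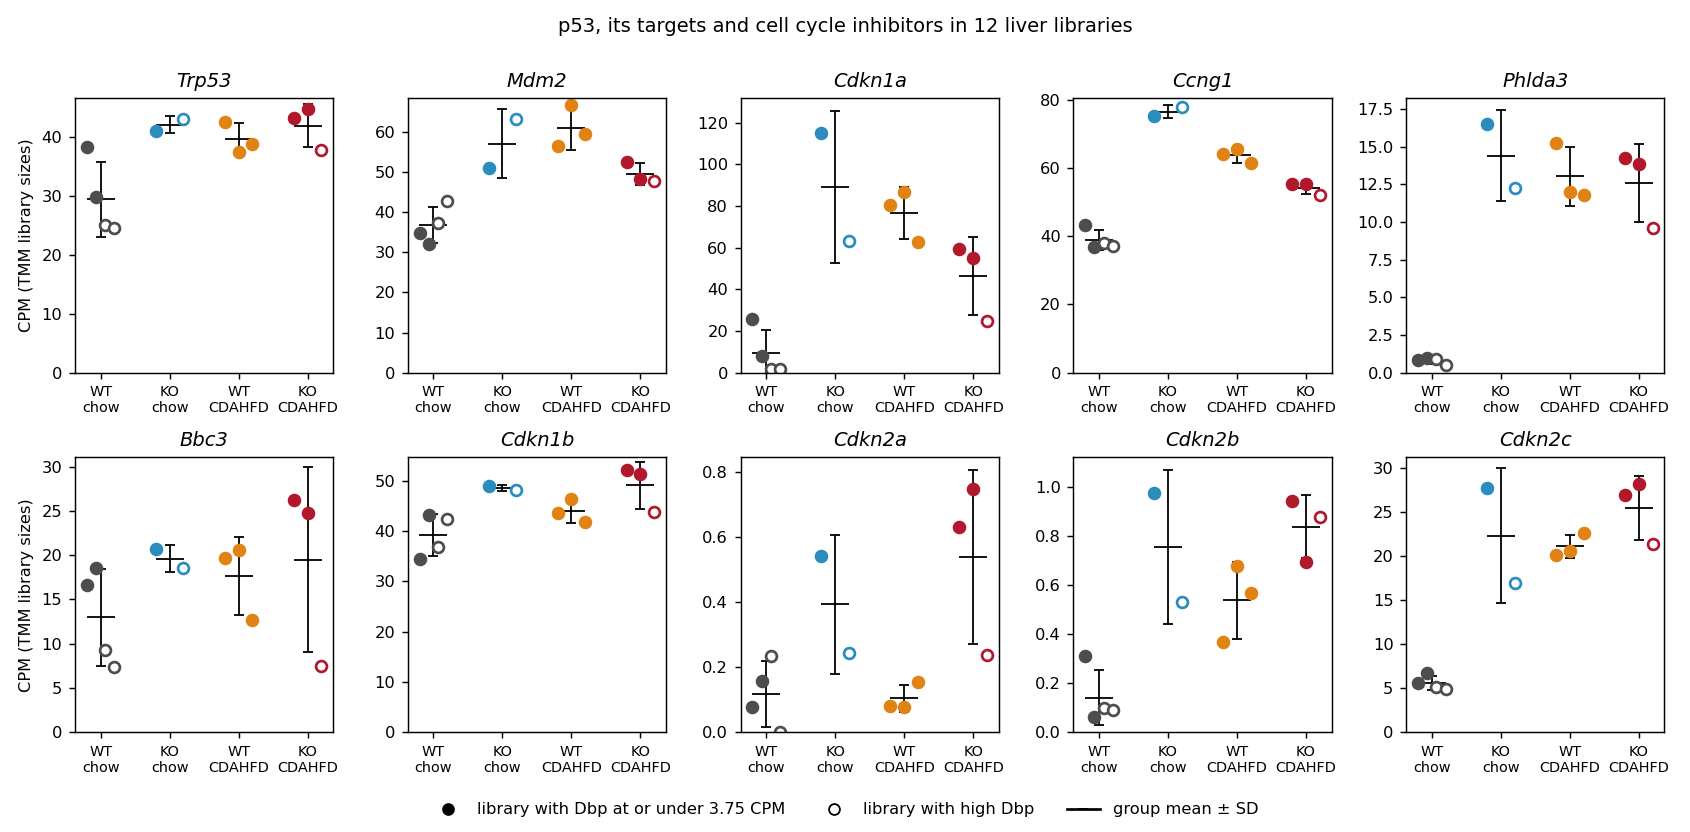
Level of each member (y axis, CPM over TMM library sizes, from 0) in the 12 libraries, with WT chow, KO chow, WT CDAHFD and KO CDAHFD on the x axis. Each point is a library, open points are the 4 high-Dbp libraries, and bars show the group mean ± SD (n = 4, 2, 3 and 3), with the lower end of the Cdkn1a bar in WT chow falling below the axis. Phlda3 and Cdkn2c stand apart from WT chow in every other library, while Bbc3 overlaps in all groups.

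Trp53 (ENSMUSG00000059552, chr11:69580359-69591873, + strand) changed little in size. Its levels were 38.3, 29.9, 25.0 and 24.6 CPM in WT chow replicates 1 to 4, 41.1 and 43.1 CPM in KO chow, 42.6, 37.4 and 38.8 CPM in WT CDAHFD, and 43.2, 44.8 and 37.9 CPM in KO CDAHFD. WT chow replicate 1 lay within the range of both CDAHFD groups, and the high-Dbp replicates 3 and 4 were the lowest of all libraries. The rise in KO chow was 1.43-fold (log2 0.51 ± 0.16 SE, adjusted p = 0.0223), that in WT CDAHFD 1.34-fold (log2 0.43 ± 0.14, adjusted p = 0.024) and that in KO CDAHFD 1.42-fold (log2 0.51 ± 0.14, adjusted p = 0.00934). Without the high-Dbp libraries, which left 1 KO chow library, the log2 differences were 0.27, 0.22 and 0.37. Neither KO chow nor WT CDAHFD then passed the test (adjusted p = 0.164 for WT CDAHFD), while KO CDAHFD did (adjusted p = 0.0487). By library size alone the log2 differences were larger, at 0.91, 0.98 and 1.11. The KO chow call was also lost without KO chow replicate 1 (adjusted p = 0.0734) or replicate 2 (adjusted p = 0.106), and the WT CDAHFD call without WT chow replicate 3 (adjusted p = 0.0536), replicate 4 of that group (adjusted p = 0.0552) or replicate 1 of WT CDAHFD (adjusted p = 0.0901). The RNA level of Trp53 does not measure the amount of p53 protein, which is set largely by its breakdown.

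Mdm2 (ENSMUSG00000020184, chr10:117688875-117710758, - strand), the ligase and target in the feedback loop, was separated from WT chow in each of the other groups. It stood at 34.9, 32.2, 37.4 and 42.8 CPM in WT chow, 51.0 and 63.3 CPM in KO chow, 56.5, 66.9 and 59.5 CPM in WT CDAHFD, and 52.6, 48.4 and 47.7 CPM in KO CDAHFD. No library of these 3 groups fell as low as the highest WT chow library, which was a high-Dbp one. The rises were 1.55-fold in KO chow (log2 0.64 ± 0.13, adjusted p = 0.00211) and 1.66-fold in WT CDAHFD (log2 0.73 ± 0.12, adjusted p = 0.00022). For KO CDAHFD the value was 1.35-fold (log2 0.43 ± 0.12, adjusted p = 0.00816). Without the high-Dbp libraries, which left 1 KO chow library, they were 0.61, 0.86 and 0.59 in log2, and the calls on CDAHFD stood. By library size alone they were 1.04, 1.30 and 1.05.

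Cdkn1a (ENSMUSG00000023067, chr17:29090976-29100727, + strand), which encodes p21, showed the widest spread within WT chow. Its levels were 25.5, 7.74, 1.83 and 1.93 CPM in WT chow, 115 and 63.1 CPM in KO chow, 80.7, 86.9 and 62.8 CPM in WT CDAHFD, and 59.5, 54.9 and 25.0 CPM in KO CDAHFD. KO chow and WT CDAHFD lay wholly above WT chow, whereas KO CDAHFD replicate 3 lay just under WT chow replicate 1. The group means were 9.26 ± 11.2 CPM in WT chow (SD, n = 4), 89.0 ± 36.6 in KO chow (n = 2) and 76.8 ± 12.5 in WT CDAHFD (n = 3). For KO CDAHFD the value was 46.5 ± 18.7 (n = 3). The rises were 9.61-fold in KO chow (log2 3.26 ± 0.75, adjusted p = 0.00401) and 8.29-fold in WT CDAHFD (log2 3.05 ± 0.70, adjusted p = 0.00282). For KO CDAHFD the value was 5.02-fold (log2 2.33 ± 0.69, adjusted p = 0.0125). WT chow replicate 1 set much of their size, since without it they were 4.51, 4.31 and 3.59 in log2. In each group that held both kinds of library, the high-Dbp libraries had less Cdkn1a than the rest. Among the other 8 libraries alone, of which 1 was KO chow, the log2 differences were 2.80, 2.22 (adjusted p = 0.00175) and 1.79 (adjusted p = 0.0076). An antisense gene, AC167363.2, overlaps 7.68% of the Cdkn1a exon length and held 218 counts over all libraries against 24678, and the libraries keep no strand.

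**Figure D2:**
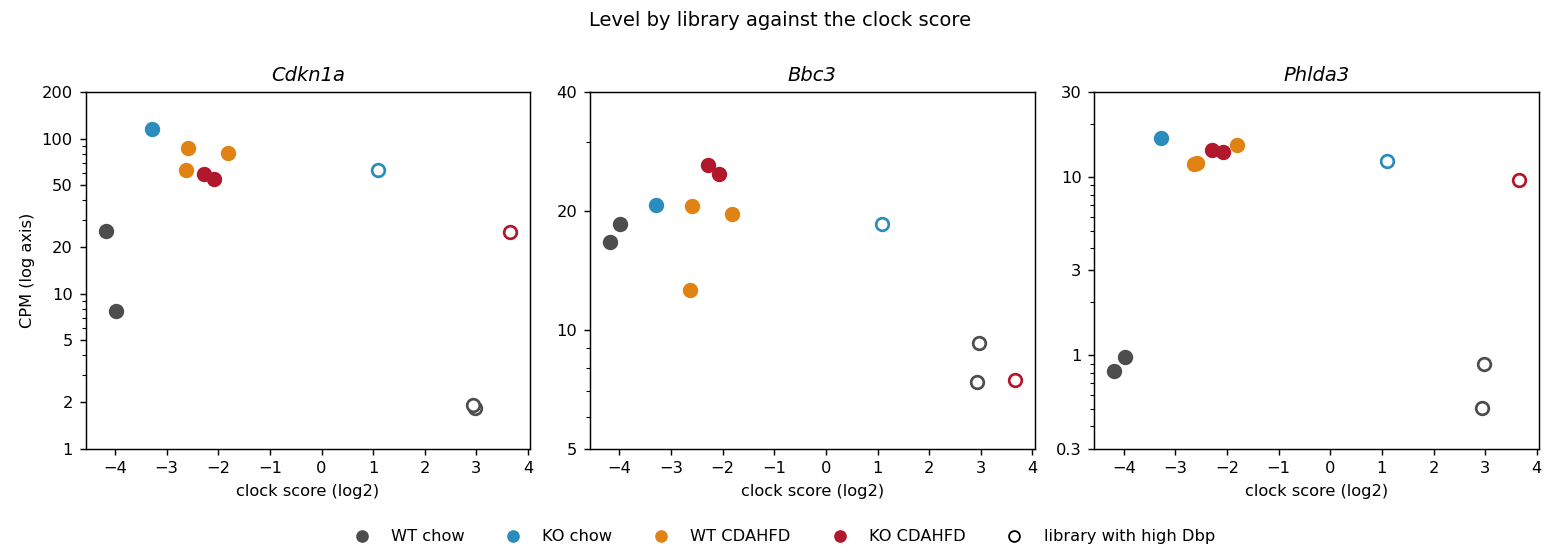
Level of Cdkn1a, Bbc3 and Phlda3 (y axes, CPM, log scale) against a clock score (x axis, mean log2 CPM of Dbp, Tef, Per3, Ciart and Nr1d2 minus that of Arntl, Npas2 and Clock), 1 point per library, coloured by group, with open points for the 4 high-Dbp libraries. Cdkn1a and Bbc3 sit low at the right in WT chow and KO CDAHFD, whereas Phlda3 separates WT chow, at no more than 0.976 CPM, from the other groups at both ends of the score.

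Ccng1 (ENSMUSG00000020326, chr11:40748552-40755311, - strand) encodes cyclin G1, a p53 target that recruits a phosphatase to MDM2. Its libraries were tightly grouped, at 43.2, 37.0, 38.1 and 37.2 CPM in WT chow, 75.2 and 78.0 CPM in KO chow, 64.3, 65.7 and 61.4 CPM in WT CDAHFD, and 55.5, 55.5 and 52.1 CPM in KO CDAHFD. No pair of groups overlapped, and the order ran from WT chow through KO CDAHFD and WT CDAHFD to KO chow. Relative to WT chow, Ccng1 rose 1.97-fold in KO chow (log2 0.98 ± 0.10, adjusted p = 6.93e-06) and 1.64-fold in WT CDAHFD (log2 0.72 ± 0.09, adjusted p = 2.15e-05). The rise in KO CDAHFD was 1.40-fold (log2 0.48 ± 0.09, adjusted p = 0.000491). By library size alone the log2 values on CDAHFD were 1.27 in WT mice and 1.09 in KO mice.

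Phlda3 (ENSMUSG00000041801, chr1:135766119-135769136, + strand) encodes a p53-induced protein that competes with AKT for membrane lipids and so dampens AKT signalling. With all libraries in, it had the largest change of the 10 members against WT chow in each comparison. It was nearly absent from WT chow, at 0.815, 0.976, 0.900 and 0.505 CPM (11 to 31 counts per library), and reached 16.5 and 12.3 CPM in KO chow, 15.3, 12.001 and 11.8 CPM in WT CDAHFD and 14.3, 13.9 and 9.63 CPM in KO CDAHFD. The lowest library outside WT chow was thus well above the highest within it, and the other 3 groups overlapped each other. The rises were 17.7-fold in KO chow (log2 4.14 ± 0.24, adjusted p = 1.36e-07) and 16.0-fold in WT CDAHFD (log2 3.998 ± 0.23, adjusted p = 4.86e-08). The rise in KO CDAHFD was 15.4-fold (log2 3.95 ± 0.23, adjusted p = 5.3e-08). Leaving out any 1 library kept them between 3.82 and 4.34 in log2, and they were 4.20, 3.85 and 3.96 without the high-Dbp libraries.

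Bbc3 (ENSMUSG00000002083, chr7:16308393-16318205, + strand), which encodes the pro-apoptotic BH3-only protein PUMA, was the member not called in any of these comparisons with TMM scaling. It stood at 16.7, 18.6, 9.24 and 7.38 CPM in WT chow, 20.7 and 18.5 CPM in KO chow, 19.7, 20.6 and 12.6 CPM in WT CDAHFD, and 26.2, 24.8 and 7.45 CPM in KO CDAHFD. A set of 3 high-Dbp libraries, WT chow replicates 3 and 4 and KO CDAHFD replicate 3, gave the lowest values of all 12 libraries, and every group overlapped WT chow. The log2 differences from WT chow were 0.59 ± 0.44 in KO chow (adjusted p = 0.313) and 0.44 ± 0.39 in WT CDAHFD (adjusted p = 0.373). The rise in KO CDAHFD was 0.58 ± 0.39 (adjusted p = 0.235). Without KO CDAHFD replicate 3 the last was 0.97 (adjusted p = 0.0235), and with the clock score as a covariate 0.59 (adjusted p = 0.0459). Without all 4 high-Dbp libraries it was 0.53 (adjusted p = 0.0674), and those in KO chow and WT CDAHFD were 0.23 and 0.0034 (adjusted p = 0.991 for WT CDAHFD). By library size alone Bbc3 was called in WT CDAHFD (log2 0.99, adjusted p = 0.0487) and, at 1.16, in KO CDAHFD (adjusted p = 0.0234), and it was 0.98 in KO chow (adjusted p = 0.087).

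Cdkn1b (ENSMUSG00000003031, chr6:134920401-134925513, + strand), which encodes p27, was abundant in every group and moved little. It stood at 34.4, 43.1, 36.9 and 42.5 CPM in WT chow, 49.0 and 48.2 CPM in KO chow, 43.6, 46.4 and 41.9 CPM in WT CDAHFD, and 52.2, 51.3 and 43.8 CPM in KO CDAHFD. Both KO groups lay above WT chow, in KO CDAHFD by a narrow margin for replicate 3, and WT CDAHFD overlapped it. The 1.25-fold rise in KO CDAHFD passed the test (log2 0.32 ± 0.11, adjusted p = 0.0211), though not without KO CDAHFD replicate 1 (adjusted p = 0.0863) or replicate 2 (adjusted p = 0.0663). The log2 difference was 0.31 ± 0.12 in KO chow (adjusted p = 0.0572) and 0.16 ± 0.11 in WT CDAHFD (adjusted p = 0.215). The KO chow value stood close to the threshold and passed it without WT chow replicate 2 (adjusted p = 0.0238), WT chow replicate 4 (adjusted p = 0.0424) or KO CDAHFD replicate 3 (adjusted p = 0.0421). It also passed with DESeq2 (adjusted p = 0.0395), with DESeq2 size factors in edgeR (adjusted p = 0.0474), with the clock score as a covariate (adjusted p = 0.0461) and by library size alone (log2 0.72, adjusted p = 0.000149). By library size alone Cdkn1b was also called in WT CDAHFD (log2 0.73, adjusted p = 3.15e-05), and its rise in KO CDAHFD was 0.93.

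The INK4 genes differed widely in level. Cdkn2c (ENSMUSG00000028551, chr4:109660876-109667189, - strand), which encodes p18, stood at 5.59, 6.70, 5.17 and 4.91 CPM in WT chow, 27.7 and 16.9 CPM in KO chow, 20.1, 20.6 and 22.6 CPM in WT CDAHFD, and 26.8, 28.1 and 21.3 CPM in KO CDAHFD. Every library of the other groups lay above WT chow, which varied less than KO chow did. The rises were 3.97-fold in KO chow (log2 1.99 ± 0.19, adjusted p = 5.08e-06) and 3.76-fold in WT CDAHFD (log2 1.91 ± 0.17, adjusted p = 1.77e-06). In KO CDAHFD it was 4.53-fold (log2 2.18 ± 0.17, adjusted p = 5.69e-07).

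Cdkn2b (ENSMUSG00000073802, chr4:89306299-89311039, - strand), which encodes p15, a target of TGF-β signalling, was scarce. It had 8, 2, 3 and 2 counts in WT chow (0.311, 0.0630, 0.100 and 0.0917 CPM), 36 and 22 counts in KO chow (0.979 and 0.534 CPM), 18, 35 and 26 counts in WT CDAHFD (0.369, 0.680 and 0.568 CPM), and 39, 26 and 37 counts in KO CDAHFD (0.945, 0.695 and 0.880 CPM). WT chow was lowest throughout, with replicate 1 nearest to the rest. The rises were 5.33-fold in KO chow (log2 2.41 ± 0.52, adjusted p = 0.00284) and 3.82-fold in WT CDAHFD (log2 1.93 ± 0.49, adjusted p = 0.00528). In KO CDAHFD it was 5.95-fold (log2 2.57 ± 0.48, adjusted p = 0.000621). Without WT chow replicate 1 they were 3.13, 2.66 and 3.31 in log2. Without the high-Dbp libraries the WT CDAHFD value was 1.59 (adjusted p = 0.0602).

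Cdkn2a (ENSMUSG00000044303, chr4:89274471-89294653, - strand) was at the edge of detection. Its counts sum the transcripts of p16Ink4a, an inhibitor of the cyclin D kinases, and of p19Arf, which holds MDM2 away from p53, and do not tell them apart. It had 2, 5, 7 and 0 counts in WT chow, 20 and 10 in KO chow, 4, 4 and 7 in WT CDAHFD, and 26, 28 and 10 in KO CDAHFD, or at most 0.749 CPM. The count of 0 in WT chow replicate 4 allows up to 3 counts, for counting error only. Both KO groups lay above both WT groups, with KO CDAHFD replicate 3, at 0.238 CPM, and KO chow replicate 2, at 0.243 CPM, next to WT chow replicate 3 at 0.233 CPM. The 4.21-fold rise in KO CDAHFD against WT chow passed the test (log2 2.07 ± 0.64, adjusted p = 0.0158), though not without KO CDAHFD replicate 2 (adjusted p = 0.0614), and the log2 difference in KO chow was 1.62 ± 0.72 (adjusted p = 0.0948). WT CDAHFD differed from WT chow by -0.27 ± 0.75 in log2 (adjusted p = 0.791), a sign that turned without WT chow replicate 3 (0.27) and with library size as the only scaling (0.27). Without the high-Dbp libraries, which left 1 KO chow library, the KO chow value was 2.15.

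KO CDAHFD was then set against each factor alone, to see whether members differed once both were present. KO CDAHFD and WT CDAHFD differed in 0 of 10 members by edgeR, which called 0.357% of all genes. DESeq2 called 0 of the 9 members to which it gave an adjusted p, Cdkn1a having none, and 0 of 10 with its filter on Cook's distance off. At an unadjusted p under 0.05 in edgeR there were 3 members, Cdkn2a, Mdm2 and Ccng1, beside 8.77% of all genes. Of these Cdkn2a was higher in KO CDAHFD by 2.34 ± 0.66 in log2 (adjusted p = 0.251), and Mdm2 and Ccng1 had lower means there. The 3 KO CDAHFD libraries lay wholly above the 3 WT CDAHFD libraries for Cdkn2a and Cdkn2b, beside 9.47% of all genes, and wholly below them for Cdkn1a, Mdm2 and Ccng1, beside 11.3%. Cdkn1a differed by -0.73 ± 0.71 in log2 (adjusted p = 0.834).

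Against KO chow, KO CDAHFD had 1 member called of 10, Ccng1, where 6.19% of all genes were called and 2.44% were lower. Ccng1 fell by 0.50 ± 0.10 on the log2 scale (adjusted p = 0.0169). That call was lost without KO chow replicate 1 (adjusted p = 0.0914), KO chow replicate 2 (adjusted p = 0.0834) or KO CDAHFD replicate 1 (adjusted p = 0.0501), and without the 4 high-Dbp libraries (log2 -0.44, adjusted p = 0.087). KO chow and WT CDAHFD differed in 0 of 10 members by edgeR, which called 6.12% of all genes. DESeq2 called 0 of the 8 members to which it gave an adjusted p, with none for Cdkn1a and Cdkn2a, and 0 of 10 with its filter on Cook's distance off. Cdkn2a and Ccng1, 2 of the 10, had an unadjusted p under 0.05 in edgeR, where 4168 of the 17358 genes tested did, a share of 24%. Cdkn1b, Cdkn2a and Ccng1 lay wholly higher in KO chow, beside 24.5% of all genes. Cdkn2a was higher in KO chow by 1.88 ± 0.74 in log2 (adjusted p = 0.142), and by 2.36 without the high-Dbp libraries, which left 1 KO chow library.

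**Figure D3:**
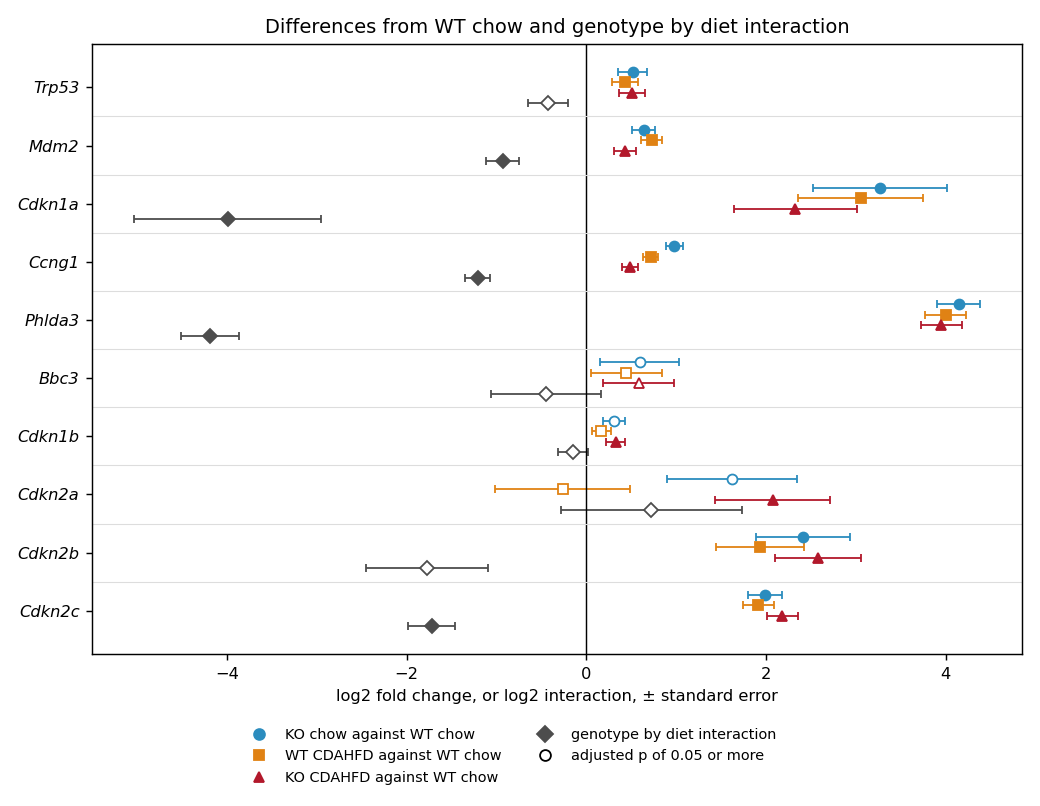
Log2 fold change of each member against WT chow in KO chow (circles), WT CDAHFD (squares) and KO CDAHFD (triangles), and the log2 genotype by diet interaction (diamonds), on the x axis with bars of ± 1 SE. Filled symbols have an adjusted p under 0.05, and the interaction lies left of 0 for the members that rose most, down to -4.19 for Phlda3.

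The interaction of genotype and diet asks whether the KO difference on CDAHFD departs from the KO difference on chow. A negative value means that KO minus WT was lower on CDAHFD than on chow, which includes a change of sign. The interaction was called in 5 of 10 members, all negative, where 23.1% of all genes were called and 14.5% were negative. It uses the WT chow libraries again, so a gene raised alike in every other group takes a negative value. The interaction is thus not separate from the comparisons with WT chow. The values in log2 were -4.19 ± 0.32 for Phlda3 (adjusted p = 3.65e-06), -3.99 ± 1.04 for Cdkn1a (adjusted p = 0.015) and -1.72 ± 0.26 for Cdkn2c (adjusted p = 0.000465). They were -1.21 ± 0.13 for Ccng1 (adjusted p = 5.24e-05) and -0.93 ± 0.18 for Mdm2 (adjusted p = 0.0026). In these 5 genes the genotypes differed on chow, while on CDAHFD no difference between them passed the test. The Cdkn1a value was -3.50 (adjusted p = 0.0647) without KO chow replicate 1 and -5.24 without WT chow replicate 1. Of the 5 members not called, Cdkn2b came nearest, at -1.78 ± 0.68 (adjusted p = 0.0788), and passed without WT chow replicate 1 (-2.48, adjusted p = 0.0116). Trp53, at -0.43 ± 0.22 (adjusted p = 0.19), also passed without that library (-0.59, adjusted p = 0.0192). Bbc3 stood at -0.45 ± 0.61 (adjusted p = 0.654), Cdkn1b at -0.15 ± 0.17 (adjusted p = 0.573) and Cdkn2a at 0.72 ± 1.01 (adjusted p = 0.664). Without the 4 high-Dbp libraries, which left 1 KO chow library, Cdkn1a stood at -3.23.

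Levels of different members were compared as CPM per kilobase of exon. In WT chow Ccng1 was highest, at a mean level of 11.1 CPM per kilobase, above Cdkn1b (8.62), Trp53 (7.28), Mdm2 (7.24) and Bbc3 (6.10). Ccng1 lay clear of Cdkn1b in every library, and each of the next neighbours overlapped. Cdkn1a (2.61) and Cdkn2c (2.08) overlapped too. Phlda3 (0.512) lay below Cdkn2c in every library but overlapped Cdkn1a, and Cdkn2b (0.102) and Cdkn2a (0.0999) were lowest and overlapped. In KO chow Cdkn1a had the highest mean level, at 25.1 CPM per kilobase, and overlapped Ccng1 at 21.8. Mdm2, Cdkn1b, Trp53, Phlda3, Bbc3 and Cdkn2c followed with means between 8.30 and 11.2, each overlapping its neighbour. In WT CDAHFD Cdkn1a (21.6) and Ccng1 (18.2) again led, and in KO CDAHFD Ccng1 (15.5) and Cdkn1a (13.1). Cdkn2a and Cdkn2b stayed under 1 CPM per kilobase in every group mean, up to 0.604 for Cdkn2b in KO CDAHFD.

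The other genes of the pathway were taken from lists written by role, with earlier results of these data known. Beside the counts below, 22.0% of all genes tested rose and 17.0% fell in KO chow. The shares were 26.1% and 25.0% in WT CDAHFD, and 26.9% and 25.4% in KO CDAHFD. Of 28 other p53 target genes, 13 rose and 1 fell in KO chow, 13 rose and 1 fell in WT CDAHFD, with 13 up and 2 down for KO CDAHFD. Their median log2 fold changes were 0.75, 0.59 and 0.24. Eda2r and Tnfrsf10b, both members of the TNF receptor family, led in each comparison. Eda2r rose by 4.04 ± 0.35, 3.99 ± 0.33 and 3.25 ± 0.33 in log2, and Tnfrsf10b by 3.68 ± 0.24, 3.64 ± 0.22 and 3.15 ± 0.22. Next came Btg2, an anti-proliferative gene, in KO chow (2.66 ± 0.24) and WT CDAHFD (2.71 ± 0.23), and Ddit4, an inhibitor of mTORC1, in KO CDAHFD (2.46 ± 0.51). Ddit4 ran from 8.44 to 51.3 CPM in KO CDAHFD and so overlapped WT chow, at 3.87 to 9.25 CPM. Genes of the lists are given with all libraries in, and not without the high-Dbp ones. In the interaction 11 of the 28 were called, all negative, where 14.5% of all genes were called negative. In the comparisons with WT chow 14, 14 and 13 of the 28 did not pass the test in either direction.

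Regulators of p53 were called in both directions, in numbers near the shares of all genes given above. Of 16 genes in that list 14 were tested, and Trp63 and Trp73, the other members of the p53 family, had at most 6 and 2 counts in any library. In KO chow 2 rose and 3 fell, in WT CDAHFD 4 rose and 4 fell, and in KO CDAHFD 3 rose and 3 fell, with median log2 fold changes of -0.10, 0.0024 and -0.09. The checkpoint kinase genes Chek1 and Chek2 rose in each. Chek1 rose by 2.90 ± 0.40 in KO chow, 1.83 ± 0.38 in WT CDAHFD and, with both, 2.11 ± 0.38 in KO CDAHFD. Chek2 rose by 1.14 ± 0.19, 1.28 ± 0.17 and 1.11 ± 0.17 in the same order. Ep300, a coactivator that acetylates p53, fell by 0.57 ± 0.19 in KO chow. It was not called in WT CDAHFD (-0.0039 ± 0.16) or KO CDAHFD (-0.15 ± 0.17).

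The remaining CDK inhibitors were Cdkn1c (p57) and Cdkn2d (p19, the INK4 protein). Cdkn1c rose by 0.97 ± 0.35 in KO chow (adjusted p = 0.0425) and 1.07 ± 0.31 in WT CDAHFD (adjusted p = 0.0122). In KO CDAHFD it was 1.74 ± 0.31 (adjusted p = 0.000476). Cdkn2d rose by 0.87 ± 0.32 in KO chow (adjusted p = 0.0471) and by 0.91 ± 0.29 with both factors, in KO CDAHFD (adjusted p = 0.0186), and was not called in WT CDAHFD. The median log2 fold changes of the pair were 0.92, 0.88 and 1.32.

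Next came the cyclins and kinases that these inhibitors act on, and what lies downstream. Of 17 genes for G1 cyclins, their kinases, RB and E2F proteins, 11 rose and 2 fell in KO chow, 7 rose and 2 fell in WT CDAHFD, with 10 up and 2 down for KO CDAHFD, and the medians were 0.63, 0.43 and 0.65. Ccnd1, cyclin D1, rose by 3.85 ± 0.43, 3.23 ± 0.40 and 3.46 ± 0.41, with the LTO1 gene on the opposite strand over 23.4% of its exon length. Ccne1, cyclin E1, rose by 2.78 ± 0.47, 1.85 ± 0.45 and 2.40 ± 0.44, and Rbl1, which encodes p107, by 2.06 ± 0.34, 2.03 ± 0.31 and 2.06 ± 0.31. All 10 proliferation genes rose in each comparison, with medians of 4.24, 3.67 and 3.52, and all 10 had a negative interaction. Ccnb1, cyclin B1 of mitosis, rose by 6.24 ± 0.50, 5.46 ± 0.48 and 5.20 ± 0.48. Inhibitor and proliferation transcripts were thus higher in the same livers, and bulk counts do not say whether in the same cells.

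Among 11 other BCL2 family genes 3 rose and 2 fell in KO chow, 5 rose and 2 fell in WT CDAHFD, with 4 up and 1 down for KO CDAHFD, and the medians were 0.18, 0.42 and 0.33. In KO chow these counts were near the shares of all genes, 22.0% and 17.0%. Bcl2, which opposes apoptosis, rose by 1.65 ± 0.23, 1.70 ± 0.21 and 1.87 ± 0.21. Bik, a BH3-only gene like Bbc3, fell by 1.59 ± 0.33, 1.06 ± 0.27 and 1.10 ± 0.28. Other BH3-only genes went both ways. Bcl2l11 rose on CDAHFD, by 1.17 ± 0.23 for WT mice and 1.15 ± 0.23 for KO mice, and was not called in KO chow (0.47 ± 0.26). Bmf was lower in KO chow (-0.91 ± 0.32) and WT CDAHFD (-0.92 ± 0.28), with no call for KO CDAHFD (-0.61 ± 0.28).

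**Figure D4:**
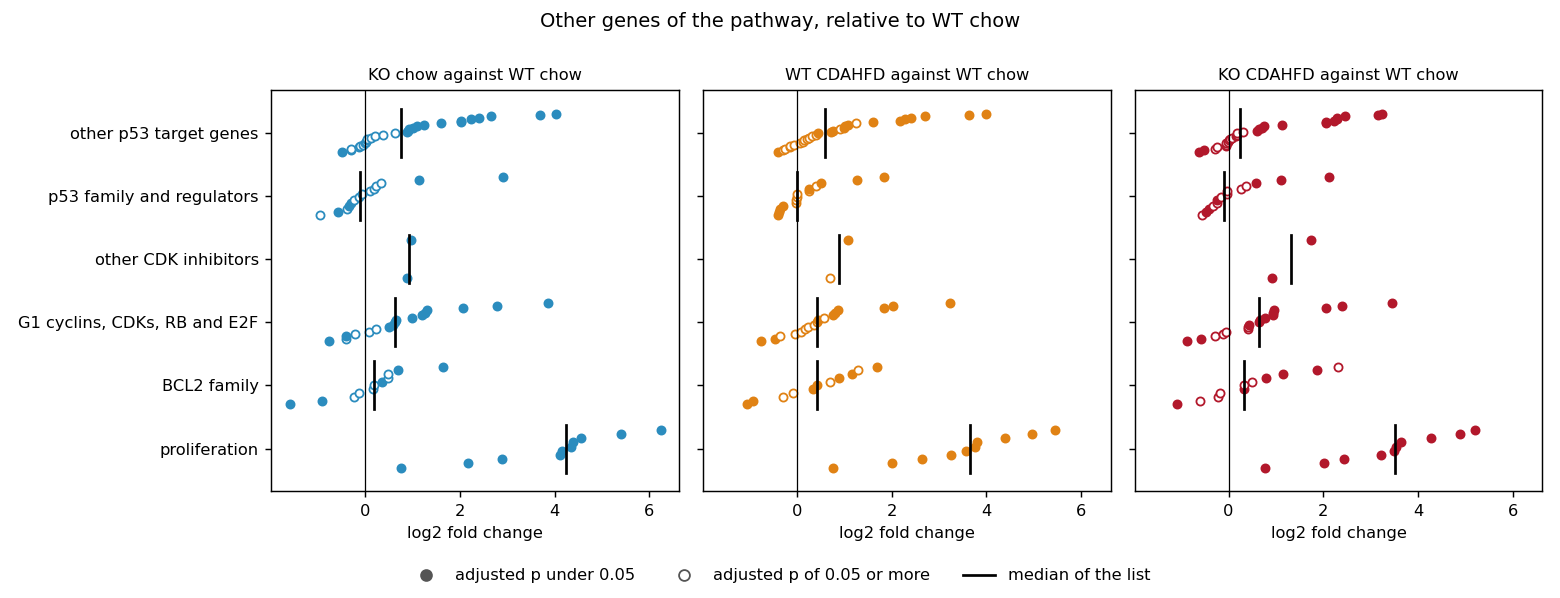
Log2 fold change (x axis) of each tested gene in 6 lists of other pathway genes (rows), against WT chow, with a panel each for KO chow, WT CDAHFD and KO CDAHFD. Each point is a gene, filled at an adjusted p under 0.05, and the bar is the median of the list, which lies between 3.52 and 4.24 for proliferation and between 0.24 and 0.75 for the other p53 target genes.

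Genes whose pattern was most like that of a member were found by the root mean square difference between centred log2 CPM over the 12 libraries. Nearest to Phlda3 were Gpat3 (0.241), Top2a (0.275) and Tubb2b (0.283), against a spread of Phlda3 about its own mean of 1.90. Cdkn2c, with a spread of 0.978, was followed most closely by Gpx8 (0.133), Fbln5 (0.200) and Dapp1 (0.202). Cdkn1a, with a spread of 1.98, had no near match, the closest being Ccl7 (0.569), Dhrs9 (0.573) and Gm11843 (0.573). Nearest to Ccng1 (spread 0.369) were Kmt5a (0.103), Aen (0.111), itself on the list of p53 targets, and Eif6 (0.118). For Mdm2 (spread 0.324) they were Tpr (0.0741), Exoc4 (0.0992) and Sorbs2 (0.109), for Trp53 (spread 0.289) Elovl1 (0.0977), Smyd5 (0.111) and Tmem62 (0.114), and for Cdkn2b (spread 1.09) Stard6 (0.330), Cysltr1 (0.344) and Chpf (0.347). A small difference says only that 12 values ran alike.

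Relative to WT chow, markers of several liver cell types differed in the same groups as the members. Summed over 6 genes, macrophage markers ran from 224 to 416 CPM for WT chow, from 766 to 860 for KO chow, from 1218 to 1715 for WT CDAHFD and from 1248 to 1313 for KO CDAHFD. Stellate cell markers (6 genes) ran from 38.7 to 112, 381 to 468, 556 to 589 and 605 to 890 CPM, and cholangiocyte markers (5 genes) from 46.0 to 79.4, 165 to 288, 358 to 578 and 568 to 883 CPM in the same order. Hepatocyte markers (6 genes) ran from 80990 to 99690, 70760 to 81190, 42150 to 51690 and 39880 to 54460 CPM, so the label of liver held in every library.

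Counted by the test, macrophage markers rose in 5 of 6 genes in each comparison with WT chow, stellate cell markers in 3, 3 and 4 of 6, and cholangiocyte markers in 4, 5 and 5 of 5, in the order KO chow, WT CDAHFD and KO CDAHFD. Of all genes tested, 22.0%, 26.1% and 26.9% rose in the same order, and 17.0%, 25.0% and 25.4% fell. T and NK cell markers rose in 3 of 5 genes in each, and neutrophil markers in 2, 2 and 3 of 3 tested, with Ly6g at 0 in WT chow. B cell markers were called in 0 of 3 genes in each, with summed levels from 1.83 to 5.31 CPM over all libraries. Hepatocyte markers fell in 4, 6 and 6 of 6 genes, endothelial markers in 0, 2 and 2 of 5, and red cell genes in 1, 3 and 1 of 3. Of the clock genes, 0 of 5 evening-high genes were called in each, though their median log2 fold changes were -0.50, -2.13 and -0.20. Of 3 morning-high genes 1, 0 and 1 fell. In KO CDAHFD against KO chow, 3 of 6 macrophage and 2 of 5 cholangiocyte markers were higher, and 2 of 6 hepatocyte markers were lower. No other cell type list had a call there, and of the 10 members 0 were higher and 1 was lower. Of the 17358 genes tested, 652 were higher and 423 lower. The part of these cell types and of the clock in the levels of the 10 members was not tested.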

How the data were processed

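Liver RNA-seq libraries were grouped by the genotype, treatment and title of their labels into WT chow (4), KO chow (2), WT CDAHFD (3) and KO CDAHFD (3). The study's methods give 3 mice per group. The authors deposited whole-number counts of reads per Ensembl gene, without normalization. Per the labels and methods, poly-A libraries without strand were checked with FastQC 0.11.5 and aligned to GRCm38 with STAR 2.7.3a, and DESeq2 was among the tools; the counting program and annotation are not given in the sources used here. GENCODE M21 held 52081 of the identifiers (94.08%) and gave symbols and exon lengths.

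The members and the lists of other genes were chosen with earlier results of these data known. Counts were filtered with filterByExpr, scaled with TMM and fitted with a mean per group over the 12 libraries (glmQLFit and glmQLFTest, edgeR 4.0.16, R 4.3.3), so the groups share 1 estimate of spread. A gene was called at a Benjamini-Hochberg adjusted p under 0.05 over the 17358 genes tested. SE is the log2 fold change divided by the root of F. The edgeR fit with TMM was first tested on simulated data, for the comparisons with WT chow only. Few genes were changed there, evenly up and down, so it cannot test the scaling where many genes change. Likeness used log CPM with a prior count of 2. No pair of libraries of the same group agreed within sampling noise, and pairs across groups were not compared.

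All members are named. From each pathway list up to 3 called genes with the largest change per comparison are named, and for likeness the 3 nearest genes of each member called in 2 or more comparisons with WT chow. Alternatives were library size only, DESeq2 size factors, DESeq2 1.42.0, no filter, a replicate block by the numbers in the titles, a clock score as covariate and leaving out each library. Leaving out the 4 high-Dbp libraries, switching off DESeq2's filter on Cook's distance and a replicate block with the description's number for KO chow replicate 2 were added after the data were seen. Depth, from 29906785 to 43551003 counts, limits Cdkn2a and Cdkn2b, and limits given cover counting error only.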

Additional observations from a re-analysis of the deposited data

Results flagged for a closer look

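In WT chow the highest Cdkn2b library, replicate 1, stood apart from the other 3, with its gap to the nearest taking 0.85 of the range of the group. For normally distributed values, chance marks about 1 in 20 such groups, and the WT chow groups of all 10 members were searched. The library held 8 counts, and at counts this low that rate need not hold. The genotype difference changed with diet in 5 members, by edgeR's interaction term: by -3.99 in log2 for Cdkn1a, -1.72 for Cdkn2c, -0.93 for Mdm2, -1.21 for Ccng1 and -4.19 for Phlda3. In each of them both KO groups and WT CDAHFD had a higher mean than WT chow.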

How the results depend on the processing

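Of the counts of members called, those relative to WT chow stayed within 1.5 times their value under every alternative. The 1 call of KO CDAHFD against KO chow (Ccng1) became 0 with library size only, with a replicate block and without the 4 high-Dbp libraries, and ran from 0 to 1 when 1 library was left out. The count for the interaction rose from 5 to 8 with library size only. In KO chow against WT CDAHFD, Cdkn2a moved from 1.88 to 2.36 in log2 without the 4 high-Dbp libraries, which left 1 KO chow library. Signs turned for Cdkn2a in WT CDAHFD against WT chow, to 0.27 with library size only and to 0.27 without WT chow replicate 3 (from -0.62 to 0.27 over single libraries left out), and for the Bbc3 interaction, to 0.30 without the 4 high-Dbp libraries. The cause of these moves was not tested. Libraries with the same number in their titles correlated at -0.242 to 0.266 in their deviations from the group means, and not every library correlated best with its own number. The deviations of the 2 KO chow libraries mirror each other by construction. The correlations thus cannot decide whether libraries with the same number were paired. With the replicate block the log2 change of Trp53 in KO chow was 0.38 (adjusted p = 0.0778) and that of Cdkn2a in KO CDAHFD 1.72 (adjusted p = 0.0526), and that of Ccng1 in KO CDAHFD against KO chow -0.47 (adjusted p = 0.0581), all no longer called, which left, relative to WT chow, 6 members called for KO chow, 7 for WT CDAHFD and 8 for KO CDAHFD. No other call changed with the block. KO chow replicate 2 has number 3 in its description, and with that number, a choice made after seeing the data, the correlations ran from -0.113 to 0.266. That block left Trp53 and Ccng1 called, Cdkn2a at 1.67 (adjusted p = 0.0501) and Cdkn1b called in KO chow at 0.41 (adjusted p = 0.0251). DESeq2's filter on Cook's distance left Cdkn1a without a p in every comparison. Cdkn2a kept its p but had no adjusted p in KO chow against WT CDAHFD. With the filter off, Cdkn1a was called against WT chow and in the interaction, as in edgeR. Depth limits Cdkn2a, at 0 to 28 counts, and Cdkn2b, at 2 to 39.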
